A study of Mus musculus with 6 samples.

Results

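The 14-3-3 proteins of the mouse are encoded by 7 genes, Ywhab (beta), Ywhae (epsilon), Ywhag (gamma), Ywhah (eta), Ywhaq (theta), Ywhaz (zeta) and Sfn (sigma). A gene was taken from the array by each probeset whose only gene symbol was its own, and where there were several the brightest on average stood for the gene. All 7 genes were measured, with 10 probesets between them, of 19933 genes with a probeset of their own and 28440 probesets in all. Total RNA came from NCU10K cells, an immortalized mouse neural crest line, 48 h after transfection with Nedd4 siRNA in 3 replicates or with control siRNA in 3 replicates. Both groups received the same transfection reagent, the knockdown rests on 1 siRNA against Nedd4 with no rescue, and the control was an unrelated siRNA of low GC content. The labels call the replicates independent experiments, and 300 ng of RNA from each went onto 1 Affymetrix mouse gene array.

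14-3-3 proteins are small, abundant and acidic proteins that work as dimers. Each dimer holds its client proteins through short stretches that carry a phosphorylated serine or threonine, and binding can keep a client out of the nucleus, mask a second site, block an enzyme or bridge a pair of clients. Most isoforms pair freely with each other and share many clients, whereas sigma pairs mainly with itself. NEDD4-2, the product of Nedd4l and the closest relative of the ubiquitin ligase encoded by Nedd4, is a textbook client: its phosphorylated form is held by 14-3-3 away from the sodium channel that it would otherwise ubiquitinate.

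The targeted gene was low in every array that received its siRNA. Nedd4 had log2 values of 10.45, 10.94 and 10.68 with Nedd4 siRNA, against 12.24, 12.35 and 12.34 with control siRNA (log2 fold change −1.62). The median value of an array was 6.28 to 6.35, its interquartile range was 3.06 to 3.33, and no array was left out. The line was checked against marker lists. Of 10 measured neural crest and glial markers, 7 had mean values above 9, among them Sox10 at 10.64 with Nedd4 siRNA and 11.07 with control siRNA, whereas Ednrb lay at 5.18 over all arrays. Of this list 5 genes fell and 1 rose, and its summed log2 level ran between 90.73 and 91.72 with Nedd4 siRNA and between 93.58 and 94.13 with control siRNA. In the mesenchymal list 4 of 12 genes rose and none fell, with sums of 85.0 to 85.84 with Nedd4 siRNA and 82.19 to 83.27 with control siRNA. In the neuronal list 1 of 11 measured genes rose and 2 fell, with sums of 63.75 to 64.52 with Nedd4 siRNA and 65.11 to 67.27 with control siRNA. None of the 8 measured endothelial and blood markers passed the test, all 8 had means under 6, and their sums were 42.19 to 42.99 with Nedd4 siRNA and 41.79 to 43.33 with control siRNA. Beside these counts, 9.62% of all genes rose and 9.13% fell at a limma adjusted p under 0.05. Among genes brighter than the median gene 17.6% rose and 16.2% fell. The part of the marker shifts in the values below was not tested.

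Between the groups, 1 of the 7 genes rose (Ywhag), 1 fell (Ywhab) and 5 did not pass an adjusted p of 0.05 in limma. Over all genes 18.7% passed, 9.62% upward and 9.13% downward, and among genes brighter than the median gene, where all 7 lie, 33.8% passed. The count of 2 in 7, or 28.6%, lies between these shares of 18.7% and 33.8%. Genes brighter than the median gene are only a rough match in brightness, since 6 of the 7 had means above 9. The median log2 fold change of the 7 was 0.01, and that of all genes was −0.02. In 4 of the 7, Ywhab, Ywhae, Ywhag and Ywhaq, the 3 Nedd4 siRNA arrays did not overlap the 3 control arrays. Non-overlap was found in 31.7% of all genes and in 50.9% of genes brighter than the median gene. All values are log2 expression values as deposited, so a difference of 1 is a 2-fold change, and they describe RNA and not protein.

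**Figure D1:**
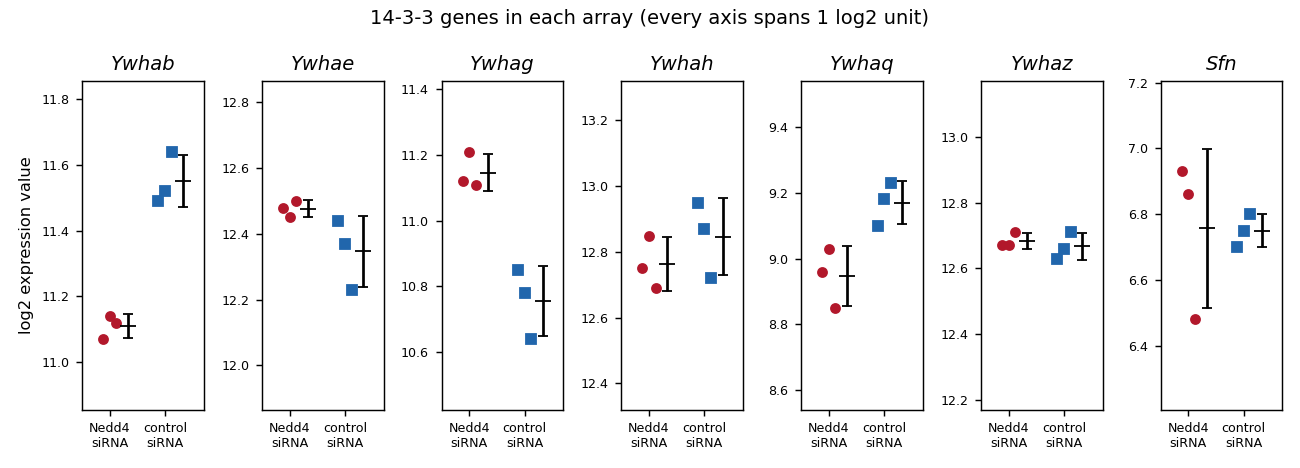
Log2 expression value (y axis, each panel spanning 1 log2 unit around its own gene) of the 7 14-3-3 genes in each array, with Nedd4 siRNA as red circles on the left and control siRNA as blue squares on the right. The bar beside the points is the mean ± SD of 3 arrays. Ywhab lies lower and Ywhag higher with Nedd4 siRNA, with no overlap between groups, while the Ywhaz points of both groups fall between 12.63 and 12.71.

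Ywhab encodes 14-3-3 beta, the isoform known for binding RAF kinases. Its values were 11.07, 11.14 and 11.12 with Nedd4 siRNA and 11.49, 11.52 and 11.64 with control siRNA. The highest Nedd4 siRNA array lay well under the lowest control array, and the Nedd4 siRNA arrays were the more tightly grouped. Ywhab averaged 11.11 ± 0.036 with Nedd4 siRNA and 11.55 ± 0.079 with control siRNA (SD, n = 3 arrays each). Its log2 fold change was −0.44 (SE 0.086, 95% interval −0.63 to −0.25, limma adjusted p = 0.00344), a 1.36-fold lower level.

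Ywhag encodes 14-3-3 gamma, an isoform abundant in brain and muscle, whose human counterpart is mutated in a childhood epileptic encephalopathy. Its values were 11.12, 11.21 and 11.11 with Nedd4 siRNA and 10.85, 10.78 and 10.64 with control siRNA. All 3 Nedd4 siRNA arrays lay above all 3 control arrays. Ywhag averaged 11.15 ± 0.055 with Nedd4 siRNA and 10.76 ± 0.11 with control siRNA (SD, n = 3 arrays each). Its log2 fold change was 0.39 (SE 0.09, 95% interval 0.19 to 0.59, limma adjusted p = 0.00968), a 1.31-fold higher level. With the methods' t-test, an analysis of variance that takes the spread of each probeset alone, the adjusted p of Ywhag was 0.0566 and that gene no longer passed.

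Since Ywhab and Ywhag moved in opposite directions, their difference was also taken within each array, which removes any shift that an array gives to all of its genes. This value was chosen after those of the single genes had been seen, and its direction follows from them. The separation of the groups and the permutation p given below follow from them too, since neither gene's groups overlapped. Ywhag minus Ywhab was 0.05, 0.07 and −0.01 log2 units with Nedd4 siRNA and −0.64, −0.74 and −1.0 with control siRNA. The means were 0.04 ± 0.042 with Nedd4 siRNA and −0.79 ± 0.19 with control siRNA (SD, n = 3 arrays each), which differ by 0.83, a 1.78-fold change in the ratio of these signals (p = 0.1 in a two-sided exact permutation test, which with 3 arrays per group cannot give a smaller p). Because probes differ in brightness, only the change of the ratio can be read, and not which isoform had more RNA.

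**Figure D2:**
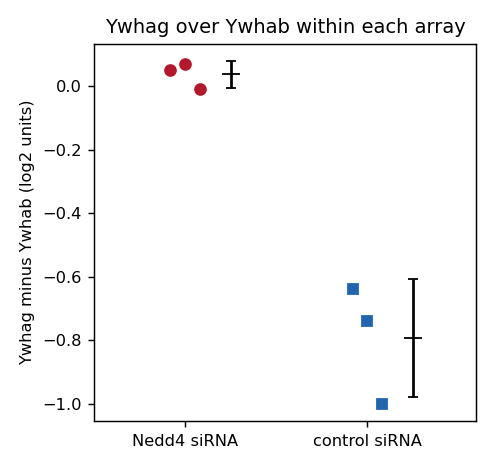
Difference of the log2 values of Ywhag and Ywhab within each array (y axis, log2 units), with 3 Nedd4 siRNA arrays as red circles on the left and 3 control siRNA arrays as blue squares on the right, and the mean ± SD beside each group. The Nedd4 siRNA arrays lie between −0.01 and 0.07, all above the control arrays.

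Ywhaq and Ywhae were the other 2 genes whose groups did not overlap, and neither passed the test. Ywhaq, the theta or tau isoform first described in T cells, had values of 8.96, 9.03 and 8.85 with Nedd4 siRNA and 9.10, 9.18 and 9.23 with control siRNA. All 3 Nedd4 siRNA arrays were lower, by margins close to the spread within a group. The log2 fold change of Ywhaq was −0.22 (SE 0.089, 95% interval −0.42 to −0.03), with an unadjusted p of 0.0275 and a limma adjusted p of 0.127. The RefSeq gene table also lists 3 Ywhaq pseudogenes, and whether the probes can tell their RNA from that of Ywhaq was not tested.

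Ywhae, the epsilon isoform, lies in humans in the chromosome region deleted in Miller-Dieker lissencephaly and binds NDEL1, a protein of neuronal migration. Ywhae had values of 12.48, 12.45 and 12.50 with Nedd4 siRNA and 12.44, 12.37 and 12.23 with control siRNA. The nearest arrays of the groups were separated by the smallest step that the values allow, and the control arrays were spread wider. The log2 fold change of Ywhae was 0.13 (SE 0.089, 95% interval −0.06 to 0.32, limma adjusted p = 0.443). In each of the 4 genes without overlap the control array of replicate 3 was the one farthest from the Nedd4 siRNA arrays.

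Ywhah, Ywhaz and Sfn had overlapping groups and 2 probesets each, and neither probeset of any of them passed the test. Whether both probesets of a gene read RNA of the same locus was not tested. Ywhah, the eta isoform, is known with other isoforms as an activator of the hydroxylases that make dopamine and serotonin. Its brighter probeset had 12.75, 12.85 and 12.69 with Nedd4 siRNA and 12.95, 12.87 and 12.72 with control siRNA, so that the groups were interleaved. Its log2 fold change was −0.08 (95% interval −0.29 to 0.12, limma adjusted p = 0.696), and the dimmer Ywhah probeset gave −0.03 (95% interval −0.22 to 0.17, limma adjusted p = 0.918).

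Ywhaz, the zeta isoform, is widely used as a reference gene in quantitative PCR. Its values were 12.67, 12.67 and 12.71 with Nedd4 siRNA and 12.63, 12.66 and 12.71 with control siRNA, and the highest value was the same in both groups. The log2 fold change of Ywhaz was 0.02 (95% interval −0.16 to 0.20, limma adjusted p = 0.948), and its dimmer probeset gave −0.02 (95% interval −0.25 to 0.21, limma adjusted p = 0.951). Changes larger than these bounds lie outside the 95% interval, and smaller ones could not be seen with 3 arrays per group.

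Sfn encodes 14-3-3 sigma, the isoform of keratinocytes and other epithelia, which p53 induces after DNA damage and which holds cells before mitosis. Its values were 6.93, 6.86 and 6.48 with Nedd4 siRNA and 6.70, 6.75 and 6.80 with control siRNA. The Nedd4 siRNA arrays lay on both sides of the control arrays, with the lowest value of all in replicate 3. The log2 fold change of Sfn was 0.01 (95% interval −0.24 to 0.26, limma adjusted p = 0.985), and its dimmer probeset gave 0.05 (limma adjusted p = 0.858). Of 12 epithelial markers, the kind of cell in which Sfn is best known, 9 had means under 6, the brightest was Krt8 at 6.97 over all arrays, and none passed the test. The summed log2 level of the epithelial list was 68.26 to 69.31 with Nedd4 siRNA and 68.53 to 70.47 with control siRNA.

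**Figure D3:**
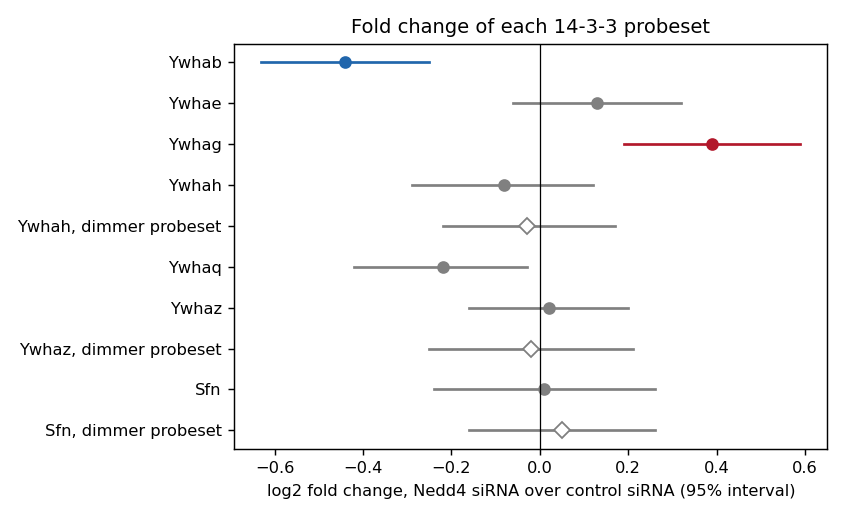
Log2 fold change of Nedd4 siRNA over control siRNA (x axis) with its 95% limma interval for all 10 probesets of the 7 14-3-3 genes (rows). Filled points are the probesets that stand for a gene, open diamonds the dimmer second probesets, and blue and red mark those past an adjusted p of 0.05. The intervals of Ywhab (blue, −0.63 to −0.25) and Ywhag (red, 0.19 to 0.59) lie on opposite sides of 0.

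The probeset of Sfn also stood apart in rank. Its mean over all arrays lay at percentile 55.2 of all probesets, and the dimmer one at percentile 34.0. The probesets that stand for the other 6 genes lay between percentile 79.2 (Ywhaq) and percentile 99.2 (Ywhah). These ranks depend on each probe's affinity as well as on RNA, so they give no order of the isoforms.

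Promoter sequences were available in the RefSeq-based table (build GRCm38.p6) for 5 of the 7 genes. Those of Ywhag, Ywhah and Sfn are shown, as the gene that rose, the bright gene that did not pass and the dim gene, each as the 150 bases before the annotated start, read 5′ to 3′ on the gene's strand. Ywhag is at chr5:135934642-135934791 (minus strand), Ywhah at chr5:33018666-33018815 (plus strand) and Sfn at chr4:133602169-133602318 (minus strand). Capitals mark matches, on either strand, to a GC box, the cyclic AMP response element or its core, a CCAAT box and a TATA box, which are spelled out after the sequences.
Ywhag: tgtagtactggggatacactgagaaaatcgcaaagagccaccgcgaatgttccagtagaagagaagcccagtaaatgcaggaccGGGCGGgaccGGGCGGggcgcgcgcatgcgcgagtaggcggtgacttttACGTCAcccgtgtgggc
Ywhah: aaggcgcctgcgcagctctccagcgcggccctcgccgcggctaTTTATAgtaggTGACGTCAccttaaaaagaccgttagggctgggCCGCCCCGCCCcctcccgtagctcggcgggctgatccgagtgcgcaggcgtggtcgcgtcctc
Sfn: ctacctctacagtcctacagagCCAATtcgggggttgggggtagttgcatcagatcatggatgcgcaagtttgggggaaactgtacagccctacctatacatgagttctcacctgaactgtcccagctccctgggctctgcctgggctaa

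In these 150 bases Ywhag held a pair of GC boxes at 66 and 56 bases before the start and the core of a cyclic AMP response element 17 bases before it, with no TATA box. Ywhah held the whole element 96 bases before the start, which contains its core on both strands, together with overlapping GC boxes and a TATA box match. Sfn held only a CCAAT box. The shares that follow are for whole windows of 300 bases, 250 before the start and 50 after it. They are therefore not like for like with the 150 bases shown. Over their whole windows Ywhag also held further GC boxes and a CCAAT box, and Ywhah further GC boxes. The share of all 32851 promoter windows of 300 bases that held a motif on either strand was 35.7% for the GC box, searched as GGGCGG. It was 1.79% for the whole cyclic AMP response element, searched as TGACGTCA, and 7.51% for its core, searched as TGACGT. It was 37.4% for the CCAAT box, searched by those letters, and 13.6% for the TATA box, searched as TATAAA. The windows of Ywhae, Ywhag, Ywhah and Ywhaq held 36, 23, 38 and 30 CpG dinucleotides and that of Sfn held 4, beside a median of 7 over all windows. Letters that match a motif do not show that a factor binds there, and binding was not measured in these samples.

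The 3 genes nearest to Ywhab over the 6 arrays, by the root mean square difference of values centred on each gene's mean, were Nup37 (0.0177 log2 units), a nuclear pore protein, Golt1b (0.0241), a Golgi transport protein, and Wdyhv1 (0.0262), an amidase that acts on terminal glutamine. Their log2 fold changes were −0.43, −0.40 and −0.47. Those nearest to Ywhag were Sacm1l (0.0334), a phosphoinositide phosphatase, 3010003L21Rik (0.0335) and Ndc1 (0.0386), a nuclear pore protein, with log2 fold changes of 0.44, 0.34 and 0.44. 3010003L21Rik failed the test with an array left out (adjusted p = 0.0623 without control siRNA replicate 3, and 0.0699 and 0.0689 without Nedd4 siRNA replicate 1 and replicate 2), and Sacm1l and Ndc1 failed under the methods' t-test (adjusted p = 0.0581 and 0.0541). Likeness in 6 arrays mostly restates the difference between the siRNAs, and it is given as a description.

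Genes of proteins known to bind 14-3-3 were read as 5 lists, by the role of the client. Of 80 listed genes 76 were measured, of which 18 rose, 7 fell and 51 did not pass the test, with a median log2 fold change of 0.02. The share past the test was 32.9%, beside 18.7% of all genes. Since client genes were mostly bright, the 63 brighter than the median gene were set beside genes of that kind. Of these 63, 38.1% passed (27.0% rose and 11.1% fell). Of all genes brighter than the median gene 33.8% passed (17.6% rose and 16.2% fell). No test was made of these shares. Without Nedd4 siRNA replicate 1, 11 clients rose and 5 fell, or 21.1% of the 76 beside 12.1% of all genes. With array weights 22 rose and 12 fell, or 44.7% beside 23.2% of all genes. Under the methods' t-test 5 rose and 3 fell, or 10.5% beside 9.05% of all genes, so the share of clients was close to that of all genes there. The shares under these settings were not matched for brightness.

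Of 18 measured signalling clients, 5 rose, 1 fell and 12 did not pass, with a median log2 fold change of 0.06. Lrrk2, which encodes a kinase mutated in familial Parkinson's disease, had values of 10.07, 10.01 and 9.97 with Nedd4 siRNA and 9.15, 9.28 and 9.17 with control siRNA. The groups lay far apart against their spread (log2 fold change 0.82, SE 0.086, limma adjusted p = 4.53e-05). The mean of all Lrrk2 probesets gave a smaller change of 0.57 (limma adjusted p = 0.000279). Braf, the gene of a RAF kinase that 14-3-3 holds in its inactive form, averaged 10.12 ± 0.095 with Nedd4 siRNA and 9.45 ± 0.20 with control siRNA (SD, n = 3 arrays each, log2 fold change 0.67, limma adjusted p = 0.00101). The other 2 named by rank of p were Gab2, an adaptor of growth factor receptors (0.54), and Pdpk1, the kinase that activates AKT (0.51). Under the methods' t-test Braf and Pdpk1 did not pass (adjusted p = 0.0663 and 0.052). Araf had a log2 fold change of 0.15 and did not pass (limma adjusted p = 0.363), and the difference between Braf and Araf was not tested. Nedd4l, named here because of its kinship with Nedd4 after its value was seen, was the gene that fell, with a log2 fold change of −0.35 (limma adjusted p = 0.0306). The call of Nedd4l was lost with each of 4 arrays left out: without control siRNA replicate 2 or 3, or Nedd4 siRNA replicate 1 or 3, the adjusted p was 0.0549, 0.112, 0.102 and 0.106, and under the methods' t-test it was 0.151.

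Of 9 measured clients of the cell cycle and survival, 3 rose, 2 fell and 4 did not pass, with a median of 0.1. Cdc25a, whose product is the phosphatase that starts cell cycle kinases and that 14-3-3 binds after checkpoint phosphorylation, had values of 8.80, 8.91 and 8.83 with Nedd4 siRNA and 9.62, 9.74 and 10.01 with control siRNA. Every Nedd4 siRNA array was lower (log2 fold change −0.94, SE 0.11, limma adjusted p = 7.31e-05). Chek1, the checkpoint kinase that phosphorylates CDC25A, also fell (−0.42, limma adjusted p = 0.0066). Cdkn1b, which encodes the cell cycle inhibitor p27, averaged 9.75 ± 0.11 with Nedd4 siRNA and 9.16 ± 0.15 with control siRNA (SD, n = 3 arrays each) and rose by 0.59 (limma adjusted p = 0.00157). Mdm4, an inhibitor of p53, rose by 0.39 (limma adjusted p = 0.00973, and 0.0696 without Nedd4 siRNA replicate 1). Under the methods' t-test Cdkn1b, Chek1 and Mdm4 did not pass (adjusted p = 0.0611, 0.0541 and 0.0538). Cdc25b and Cdc25c had log2 fold changes of −0.35 and 0.10 and did not pass (limma adjusted p = 0.244 and 0.706). Their differences from Cdc25a were not tested.

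Of 19 transcription clients, 4 rose, 1 fell and 14 did not pass, with a median of 0.02. Yap1, the Hippo pathway coactivator that 14-3-3 keeps in the cytoplasm, had values of 9.88, 9.98 and 9.88 with Nedd4 siRNA and 9.22, 9.49 and 9.15 with control siRNA. The groups did not overlap (log2 fold change 0.63, SE 0.10, limma adjusted p = 0.00102), while its paralogue Wwtr1 had 0.12 and did not pass (limma adjusted p = 0.537). The difference between Yap1 and Wwtr1 was not tested. Mlxip, which encodes a glucose-sensing transcription factor, was the only one of the 19 that fell, with 9.24 ± 0.085 with Nedd4 siRNA and 9.97 ± 0.044 with control siRNA (SD, n = 3 arrays each, log2 fold change −0.73, limma adjusted p = 0.000112). Crtc3, a coactivator of cyclic AMP responses, rose by 0.50 and Hdac9, a class IIa histone deacetylase, by 0.34 (limma adjusted p = 0.0182, and 0.106 and 0.0673 without Nedd4 siRNA replicate 1 and replicate 2). None of the 3 named genes that rose, Yap1, Crtc3 and Hdac9, passed under the methods' t-test (adjusted p = 0.0542, 0.0684 and 0.0542). The 3 Foxo genes, whose products are among the best known nuclear clients, had log2 fold changes of 0.06 (Foxo1), −0.14 (Foxo3) and −0.18 (Foxo4), none past the test.

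Of 18 cytoskeleton and polarity clients, 3 rose, 3 fell and 12 did not pass, with a median of −0.01. The genes that fell were Limk1, which encodes a kinase that switches off cofilin, an actin-severing protein, and Ssh2 and Ssh1, which encode phosphatases that switch cofilin on. Limk1 had values of 6.72, 6.69 and 6.44 with Nedd4 siRNA and 7.75, 7.94 and 7.54 with control siRNA. It showed the lowest log2 fold change of the 76 client genes (−1.13, SE 0.12, limma adjusted p = 3.92e-05), a 2.18-fold lower level. Ssh2 averaged 9.28 ± 0.23 with Nedd4 siRNA and 10.25 ± 0.26 with control siRNA (SD, n = 3 arrays each, log2 fold change −0.97, limma adjusted p = 0.000439), and Ssh1, named after its value was seen, had −0.35 (limma adjusted p = 0.0167, and 0.0529 and 0.0871 without Nedd4 siRNA replicate 1 and replicate 3). Under the methods' t-test neither Ssh2 (adjusted p = 0.0767) nor Ssh1 (0.061) passed. The mean of all Ssh2 probesets gave a smaller change of −0.77 (limma adjusted p = 6.71e-05). Among those that rose were Mark3, a polarity kinase (0.61, limma adjusted p = 0.000332), and Ppp1r12a, the targeting subunit of myosin phosphatase (0.43, limma adjusted p = 0.00501).

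Of 12 measured clients among enzymes and membrane proteins, 3 rose, none fell and 9 did not pass, with a median of −0.03. Lpin1, which encodes a phosphatidate phosphatase, had values of 7.75, 7.75 and 7.77 with Nedd4 siRNA and 7.11, 7.36 and 6.94 with control siRNA. The Nedd4 siRNA arrays were nearly equal and all higher (log2 fold change 0.62, SE 0.11, limma adjusted p = 0.00149). Tbc1d4, a regulator of glucose transporter traffic (0.53), and Pfkfb2, an enzyme that sets the pace of glycolysis (0.42), were the other 2. Tbc1d4 had an adjusted p of 0.0522 without Nedd4 siRNA replicate 1, and Pfkfb2 one of 0.0546 without control siRNA replicate 1 and of 0.0611 and 0.0565 without Nedd4 siRNA replicate 1 and replicate 2. None of these 3 genes passed under the methods' t-test (adjusted p = 0.0697 for Lpin1, 0.149 for Tbc1d4 and 0.14 for Pfkfb2). In this list 7 genes had means under 6, among them those of clients of neurons and pineal cells. Each fold change is that of RNA, and neither the binding of a client to 14-3-3 nor its phosphorylation was measured on the arrays.

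**Figure D4:**
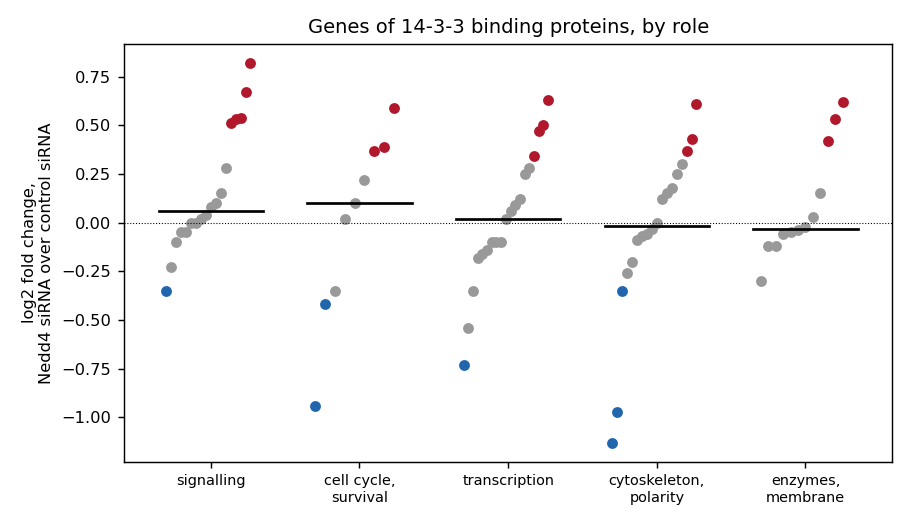
Log2 fold change of Nedd4 siRNA over control siRNA (y axis) for the 76 measured genes of 14-3-3 binding proteins, in 5 columns by role and sorted within each. Red points rose and blue points fell at a limma adjusted p under 0.05, grey points did not pass, and black bars are the medians, between −0.03 and 0.1. The points that fell farthest, Limk1 at −1.13 and Ssh2 at −0.97, are in the cytoskeleton column.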

How the data were processed

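RNA of 3 Nedd4 siRNA and 3 control siRNA replicates of NCU10K cells was measured on 1 array each. The authors processed the scans in Partek (version 6.5, per the labels) using RMA to correct background, corrected for GC content, summarized probes by their mean, and deposited log2 expression values with 2 decimals. The scans were not used here. A normalization between arrays is not given in the sources used here. Sources differ on whether cells grew in a multiwell plate or in larger dishes. Genes were named from the platform annotation (21780 probesets with 1 symbol, 1618 with several, 5042 with none), and the symbols of all 7 members matched RefSeq by gene ID. That match does not show where the probes lie on the genome, which was not tested for any gene.

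Groups were compared with limma 3.58.1 (R 4.3.3; lmFit, eBayes, no covariate), with Benjamini-Hochberg adjustment over 28440 probesets at 0.05, after a check on simulated data. Single values were tested by two-sided exact permutation, for which 0.1 is the smallest p. The precision is limited by the number of arrays. Python 3.11.15, pandas 2.3.3, NumPy 2.4.6, SciPy 1.17.1 and Matplotlib 3.10.9 were used for counts, motifs and figures. Named were the 7 members, Nedd4, up to 4 client genes past the threshold per list by smallest p, and the 3 genes nearest to each member past it. Other genes (Nedd4l, Ssh1, single markers and examples of genes that did not pass) were named after their values were seen. Members, client lists and marker lists were chosen with earlier results of these data known. Some listed genes were not analysed here. Tried as alternatives were an adjusted p under 0.01, quantile normalization or median centring, the methods' t-test, array weights, eBayes with its trend and robust options, the replicate block, dropping the dimmest 25% or 50% of probesets, averaging each gene's probesets, keeping single-symbol probesets, and dropping each array.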

Additional observations from a re-analysis of the deposited data

How the results depend on the processing

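The log2 fold change of Ywhab ran from −0.47 to −0.39 over 17 alternatives (adjusted p 0.000567 to 0.0278) and passed in all of them. That of Ywhag ran from 0.33 to 0.44 (adjusted p 0.00286 to 0.0566) and failed only under the methods' t-test (0.39, adjusted p = 0.0566), so that 0 genes of the 7 rose there. Leaving out each array gave −0.47 to −0.39 for Ywhab and 0.33 to 0.44 for Ywhag. Ywhae, Ywhah and Ywhaq kept their sign and passed in none of the 17 (adjusted p of Ywhaq 0.0711 to 0.374). Ywhaz and Sfn, both near 0, changed sign without passing: Ywhaz had −0.0203 with quantile normalization, −0.0017 with the mean of its probesets and −0.0017 to 0.0383 with an array left out, and Sfn had −0.08 to 0.14 with an array left out. Nedd4 stayed between −1.76 and −1.5. The within-array difference of Ywhag and Ywhab was 0.73 to 0.91 with an array left out.

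The count of client genes that rose, 18, was 5 under the methods' t-test and 22 with array weights. It was 11 to 19 with an array left out, the lowest of these without Nedd4 siRNA replicate 1. The count that fell, 7, was 3 under the methods' t-test, 12 with array weights and 5 to 8 with an array left out. Of the 19 client genes named by the rule, 7 passed in all 17 alternatives (Lrrk2, Gab2, Cdc25a, Mlxip, Limk1, Mark3 and Ppp1r12a), and Hdac9 and Pfkfb2 failed most often, in 4 and 5. Over all 28440 probesets 4579 passed, against 2134 under the methods' t-test, 2962 without Nedd4 siRNA replicate 1 and 2881 at an adjusted p under 0.01.

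The groups share replicate numbers, and the deviations of same-numbered arrays correlated at −0.0123, 0.472 and −0.0131. Those of differently numbered arrays ran from −0.426 to 0.415. Such correlations over 3 arrays per group cannot settle whether the numbers pair the arrays, and the main fit took no pairing. With the replicate block Ywhab had a log2 fold change of −0.44 (adjusted p = 0.0052) and Ywhag of 0.39 (adjusted p = 0.0111), with 4962 probesets past the threshold and no change of call among the 7 genes. The 3 arrays per group limit the precision. The brighter Sfn probeset had a mean of 6.75 over all arrays. Of the epithelial markers, at 5.22 to 6.97, only Krt8 lay above it. Such levels depend on each probe's affinity as well as on RNA.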

Other observations

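The brighter of the 2 Ywhaz probesets was steadier over the 6 arrays than other genes in common use as references for quantitative PCR. These genes were picked after the Ywhaz values had been seen, and the comparison carries no test. The brighter Ywhaz probeset spanned 0.08 log2 units from its lowest to its highest array, a span that 0.351% of all genes had or went below. Of 213 genes with means above 12, 2 had such a span, and the median of these 213 was 0.30. The other 10 reference genes measured spanned between 0.20 (Ppia and Tfrc) and 0.50 (Gusb). Among them Pgk1, a glycolytic enzyme, fell by 0.31 with Nedd4 siRNA (12.19 ± 0.051 with Nedd4 siRNA and 12.5 ± 0.10 with control siRNA, SD, n = 3 arrays each, limma adjusted p = 0.0321, but 0.0571 to 0.13 with any array but control siRNA replicate 3 left out and 0.0793 under the methods' t-test), and the other 9 did not pass. The dimmer Ywhaz probeset spanned 0.29, within the 0.20 to 0.50 of the other reference genes. The narrow span therefore belongs to 1 probeset and cannot be given to the gene.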
